A study of Mus musculus with 21 samples.

Results

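The transcripts of 10 genes of antigen presentation, out of 21000 genes in the deposited count table, were followed across 21 RNA sequencing libraries of mouse hematopoietic stem cells (HSCs). The members were found by their symbols. For the class II pathway of the major histocompatibility complex (MHC) these were Cd74, H2-Aa, H2-Ab1, H2-Eb1 and Ciita, and for the class I pathway H2-K1, H2-D1, B2m, Tap1 and Nlrc5. All 10 symbols were present in the table. The set was chosen by the day 21 levels of Cd74, which separated HSCs given 5-fluorouracil (5-FU) 3 times from those given it once, and Cd74 was the 1 gene past the threshold in that comparison. That comparison is therefore described for every member without a test, and Cd74 was not tested in any comparison that used day 21 libraries.

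The libraries hold HSCs of wild-type bone marrow, in 7 groups of 3 libraries. The study's methods define HSCs of C57BL/6 mice by the surface phenotype CD150+ CD48- Flt3- Lin- Sca-1+ c-Kit+, and neither the strain nor the gate is given for each library. Mice aged 10 weeks at the first injection received PBS or 5-FU once, and their HSCs were isolated at day 6. Others were injected with PBS or 5-FU on 3 occasions, 21 days apart, and gave HSCs at day 6 after the last injection. Further mice given 5-FU once or 3 times gave HSCs at day 21, and untreated mice aged 2 years gave the old HSCs. 5-FU, an inhibitor of thymidylate synthesis that kills cycling cells, was injected intraperitoneally at 150 mg/kg. PBS controls were taken at day 6 and none at day 21. At day 6 after 5-FU the study widened the sort to c-Kit-dim cells and left Mac-1 out of the lineage antibodies. It states that the gate was widened at no other time. Sort and drug therefore cannot be told apart at day 6, nor sort and time from day 6 to day 21. For the 6 libraries given PBS or 5-FU once and taken at day 6 the columns have a longer name than for the remaining 15, ending in a tag that no source explains. Each library came from 3000–3500 sorted cells of an independent experiment, with totals of 22184885 to 38649033 counts (median 26962256). A floor of 3 counts in a library corresponds to 0.0776 to 0.135 CPM (defined with the levels), which covers counting error only.

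MHC class I molecules consist of a heavy chain, such as those encoded by H2-K1 and H2-D1, and the light chain beta-2-microglobulin, encoded by B2m. They show peptides from inside the cell to CD8 T cells, after the transporter that contains Tap1 has moved these peptides into the endoplasmic reticulum. MHC class II molecules pair an alpha chain with a beta chain, load peptides from the endosome after the invariant chain Cd74 is degraded, and show them to CD4 T cells. They are best known from B cells, dendritic cells and macrophages, and are also found on hematopoietic stem and progenitor cells. Ciita is the master coactivator of class II genes, Nlrc5 is its relative for class I genes, and interferon-gamma induces both.

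RefSeq promoters (GRCm38.p6) were held for 6 of the 10 members. The 200 bases before the RefSeq start are shown for both class II chains and both class I heavy chains, since these pairs share their promoter letters. In the class II promoters the capitals mark GCAACT and CTGATTGG, letters of the X box and of the Y box at which the regulatory complex that recruits Ciita assembles. Positions of the windows are chr17:34287824-34288023 (minus strand) for H2-Aa and chr17:34305667-34305866 (plus strand) for H2-Eb1.
H2-Aa: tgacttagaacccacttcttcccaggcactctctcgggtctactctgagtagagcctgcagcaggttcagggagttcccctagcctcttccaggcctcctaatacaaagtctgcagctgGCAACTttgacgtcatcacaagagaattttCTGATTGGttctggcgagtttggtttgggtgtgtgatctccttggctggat
H2-Eb1: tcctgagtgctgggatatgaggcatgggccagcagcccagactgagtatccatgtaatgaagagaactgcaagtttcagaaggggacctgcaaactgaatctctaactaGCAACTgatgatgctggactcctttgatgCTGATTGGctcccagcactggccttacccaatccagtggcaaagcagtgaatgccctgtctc
In H2-Aa the first letters of both motifs stood 81 and 51 bases before the start, and in H2-Eb1 91 and 62 bases before it. The spacing was 30 and 29 bases. Both strands of the 250 bases before each of 32851 promoter starts were searched, and 9.01% of promoters held GCAACT and 3.83% CTGATTGG. With the order kept and first letters 27 to 33 bases apart, the pair was found in 4 promoters, those of H2-Aa, H2-Eb1, H2-Eb2 and Gstz1.

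In the class I promoters the capitals mark, from left to right, GGGATTCCC (a kappa B element), GTTTCACTT (letters of an interferon-stimulated response element), TGACGC and ATTGG. The windows are chr17:34000334-34000533 (minus strand) for H2-K1 and chr17:35262894-35263093 (plus strand) for H2-D1, the second of which lies downstream of the first base that the GRCm38 annotation gives to that gene.
H2-K1: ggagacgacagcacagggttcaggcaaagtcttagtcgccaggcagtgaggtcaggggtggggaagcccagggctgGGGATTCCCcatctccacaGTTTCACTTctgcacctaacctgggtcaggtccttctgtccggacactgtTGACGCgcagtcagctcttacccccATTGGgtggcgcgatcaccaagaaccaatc
H2-D1: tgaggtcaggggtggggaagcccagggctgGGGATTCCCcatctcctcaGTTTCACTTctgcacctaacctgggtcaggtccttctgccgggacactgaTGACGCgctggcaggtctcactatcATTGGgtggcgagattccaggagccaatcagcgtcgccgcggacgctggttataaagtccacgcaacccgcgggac
From one motif to the next the distances were 19, 50 and 25 bases in both promoters. GGGATTCCC was found in 0.301% of all promoters, GTTTCACTT in 0.338%, TGACGC in 6.12% and ATTGG, which is also part of CTGATTGG, in 33.8%. GGGATTCCC and GTTTCACTT occurred together in 5 promoters of 4 genes, H2-K1, H2-D1, H2-Q6 and H2-Q7. The B2m promoter held ATTGG at 53 bases before the start, and the Tap1 promoter held GCAACT at 196 and the reverse complement of CTGATTGG at 222. The motifs were chosen after the promoters had been read, and a match is a description of the letters.

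The member loci were read from the GRCm38 annotation. The class II genes H2-Ab1 (chr17:34257689-34269419, plus strand), H2-Aa (chr17:34282744-34287823, minus strand) and H2-Eb1 (chr17:34305867-34316674, plus strand) lie beside each other in the MHC. Tap1 (chr17:34187553-34197225, plus strand) lies close to them. H2-K1 (chr17:33996017-34000347, minus strand) and H2-D1 (chr17:35262730-35267499, plus strand) stand at either side of this cluster. Outside the MHC lie Cd74 (chr18:60803848-60812652, plus strand), Ciita (chr16:10480059-10528418, plus strand), B2m (chr2:122147686-122153083, plus strand) and Nlrc5 (chr8:94434356-94527272, plus strand). Counting by strand is not stated, and exons of Ciita, Tap1 and Nlrc5 overlap a gene on the other strand (Dexi, Psmb9 and 9330175E14Rik). Of all windows of 75 bases in the H2-D1 transcript, 6.90% also occur in transcripts of other genes, most of them H2-Q1, and of those in H2-K1 1.55%. How reads there were assigned is not stated, so the values of H2-K1 and H2-D1 may hold some reads of each other or of H2-Q1. Windows of the other 8 members were not shared.

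Levels are given as CPM, counts scaled to the library total and to TMM factors (a normalization for RNA composition) over the 21 libraries. Groups were compared on the counts by edgeR's quasi-likelihood F test, with p-values adjusted by Benjamini-Hochberg over all genes tested and a threshold of 0.05. Every adjusted p below comes from this test unless another tool is named. Values are given in the order of replicates 1 to 3, and fold changes are on the log2 scale with their standard error (SE).

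**Figure D1:**
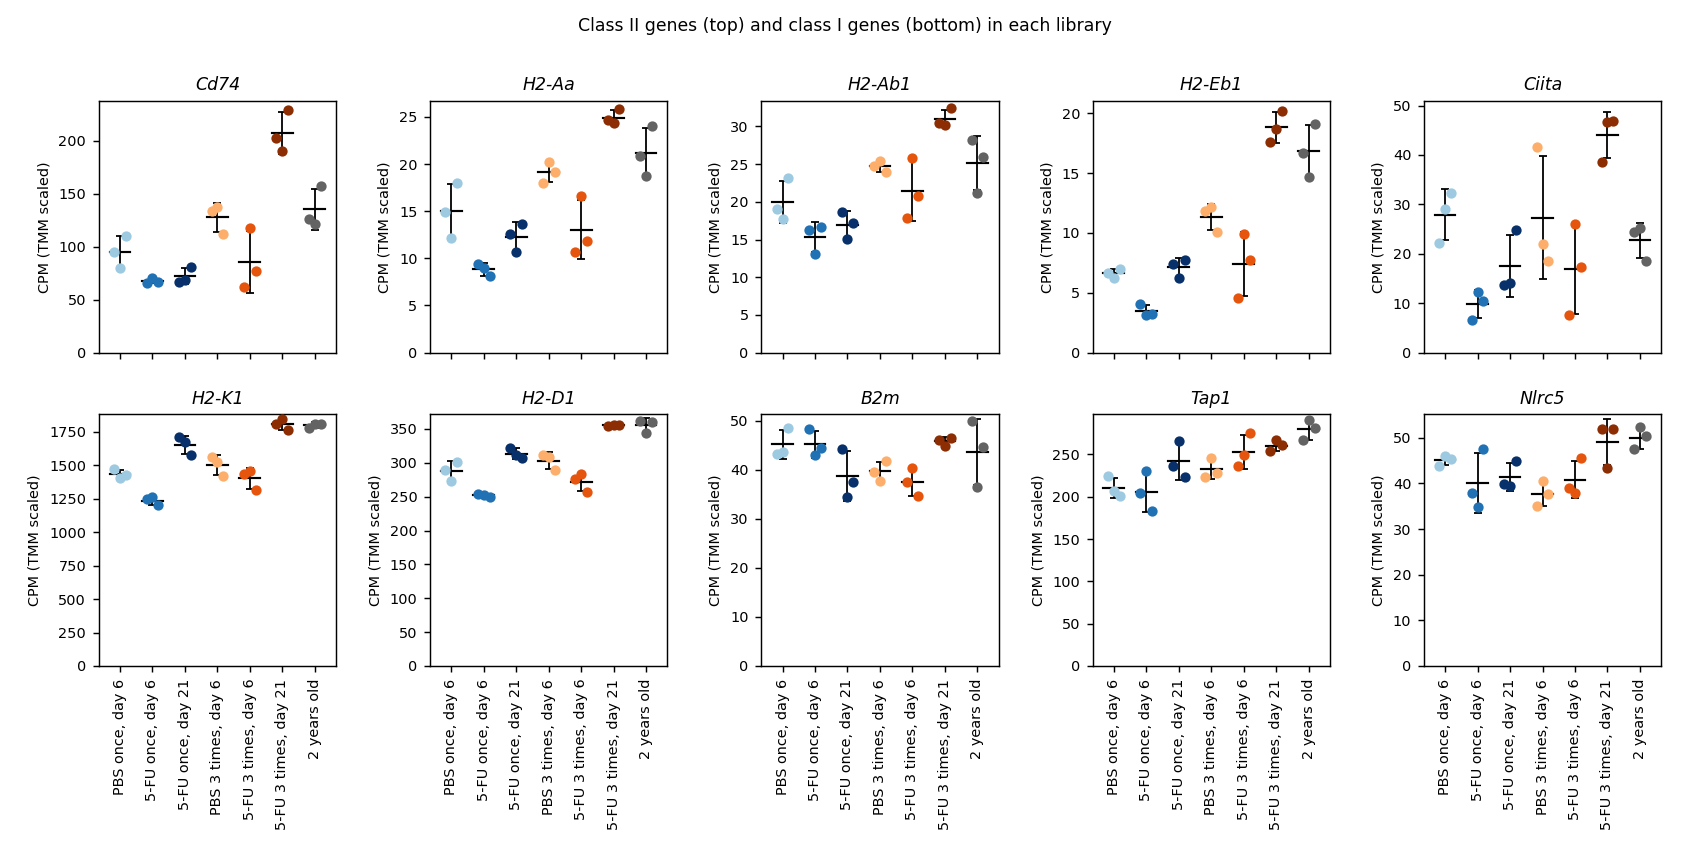
Level of each member in each library (points, CPM scaled by TMM factors), with the mean and SD of each group of 3 libraries (bars), for class II genes in the top row and class I genes in the bottom row. For Cd74 the 3 libraries given 5-FU 3 times and taken at day 21 lie at 190.25 to 229 CPM, above the other 18 libraries, while B2m stays between 34.5 and 49.9 CPM in all 21.

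At day 6 after 1 administration of 5-FU the largest decreases among the members were those of class II genes. Of the 10 members, 5 were past the threshold, all lower after 5-FU: Cd74, H2-Aa, H2-Eb1, Ciita and H2-K1. Over all 12759 genes tested, 22.2% were past the threshold and 10.6% were lower. The median log2 fold change was −0.78 over the 5 class II members, −0.18 over the 5 class I members and 0.00 over all genes.

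Ciita, the class II coactivator, measured 22.3, 29.0 and 32.4 CPM after PBS and 6.68, 12.4 and 10.5 CPM after 5-FU. Every 5-FU library lay below every PBS library. Its log2 fold change of −1.51 (SE 0.24, adjusted p = 0.00657), 0.352-fold, was the strongest fall among the members. H2-Eb1, the class II E beta chain, measured 6.67, 6.27 and 7.02 CPM after PBS and 4.03, 3.11 and 3.25 CPM after 5-FU. The groups were separate, and the log2 fold change was −0.95 (SE 0.20, adjusted p = 0.0177). H2-Aa, the class II A alpha chain, measured 14.9, 12.2 and 18.0 CPM after PBS against 9.41, 8.999 and 8.08 CPM after 5-FU. It too fell without overlap, by 0.78 on the log2 scale (SE 0.16, adjusted p = 0.0164).

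The invariant chain Cd74 measured 94.7, 79.9 and 110.4 CPM after PBS once and 66.0, 70.7 and 67.2 CPM after 5-FU once. The 5-FU libraries were tightly grouped below the lowest PBS library, and the log2 fold change was −0.49 (SE 0.12, adjusted p = 0.0273). H2-Ab1, the A beta chain that pairs with H2-Aa, measured 19.0, 17.7 and 23.1 CPM after PBS and 16.2, 13.1 and 16.7 CPM after 5-FU. Its libraries did not overlap, but the log2 fold change of −0.39 (SE 0.14, adjusted p = 0.0893) missed the threshold. With the 21 libraries in a single fit, Cd74 also missed it (adjusted p = 0.0680).

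The number of members past the threshold rested on single libraries. It was 2 without replicate 1 and 2 without replicate 3 of PBS once, where Cd74, H2-Eb1 and H2-K1 missed it. Without replicate 2 of 5-FU once it was 3 (Cd74 and H2-Eb1 missed), and without replicate 3 it was 1, with Ciita alone past the threshold. Cd74 was also lost without replicate 1 of 5-FU once, and H2-K1 without replicate 2 of PBS once. The adjusted p of the lost members lay between 0.05004 and 0.0804, and Ciita passed in all 6 of these fits.

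After 3 administrations the class II genes were again lower on average at day 6, but none of the 10 members was past the threshold (edgeR; 18.1% of all 12729 genes tested were past it and 8.30% were lower). At an unadjusted p under 0.05 there were 4 members (32.9% of all genes), and DESeq2 called 3, Cd74, H2-Aa and H2-D1 (26.4% of all genes). The median log2 fold change was −0.60 for class II members, −0.10 for class I members and −0.01 over all genes. Scaled by library totals instead, the median over all genes was −0.11, and 2 members, H2-Aa and H2-D1, were past the threshold.

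After 3 administrations the class II values of the 5-FU group were widely spread. Cd74 measured 133, 137.5 and 112 CPM after PBS and 61.5, 118 and 77.3 CPM after 5-FU. Replicate 2 after 5-FU lay within the PBS range, and the log2 fold change was −0.60 (SE 0.23, adjusted p = 0.113). H2-Aa measured 18.0, 20.2 and 19.2 CPM after PBS and 10.7, 16.6 and 11.8 CPM after 5-FU (log2 fold change −0.58, SE 0.17, adjusted p = 0.0575). For H2-Aa even this highest 5-FU library lay under the PBS libraries. H2-Eb1 measured 11.8, 12.1 and 10.1 CPM after PBS and 4.58, 9.93 and 7.76 CPM after 5-FU (−0.63, SE 0.27, adjusted p = 0.151).

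H2-Ab1 measured 24.7, 25.4 and 23.998 CPM after PBS 3 times and 17.9, 25.8 and 20.8 CPM after 5-FU 3 times (log2 fold change −0.22, adjusted p = 0.306). For Ciita both groups were wide, with 41.5, 21.9 and 18.5 CPM after PBS and 7.66, 26.1 and 17.3 CPM after 5-FU (−0.71, SE 0.46, adjusted p = 0.336). Replicate 2 was the highest 5-FU library for all 5 class II members. Without it, 2 members were past the threshold, Cd74 at a log2 fold change of −0.90 (adjusted p = 0.0204) and H2-Aa at −0.78 (adjusted p = 0.0165).

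The effect of 5-FU was not shown to differ between 1 and 3 administrations. In the interaction test of edgeR over the 12 libraries of day 6, none of the 10 members was past the threshold, with 0 at an unadjusted p under 0.05 and 0 by DESeq2, while 0.650% of all genes were past it. Ciita had the widest difference, 0.81 (SE 0.59, adjusted p = 0.567), and Cd74 had −0.10 (SE 0.28, adjusted p = 0.912).

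At day 21 HSCs given 5-FU 3 times had the highest mean of all 7 groups for each class II member. These values chose the members and are given without a test. Cd74 measured 203, 190.25 and 229 CPM after 3 administrations and 67.1, 68.9 and 81.2 CPM after 1. No library of either group came near the other. The log2 difference was 1.51.

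H2-Eb1 measured 17.6, 18.7 and 20.2 CPM after 3 administrations and 7.38, 6.25 and 7.73 CPM after 1 (difference 1.40). H2-Aa measured 24.7, 24.3 and 25.8 CPM against 12.6, 10.6 and 13.7 CPM (1.02), and H2-Ab1 30.5, 30.3 and 32.4 CPM against 18.6, 15.1 and 17.2 CPM (0.87). Ciita measured 38.6, 46.7 and 46.9 CPM against 13.7, 14.1 and 24.7 CPM (1.33). Each of these class II genes was thus separated between the groups as Cd74 was, although Cd74 alone was past the threshold over all genes. Of the 10 members, 8 were higher after 3 administrations without overlap, all but Tap1 and Nlrc5, and 6.37% of all genes were. Cd74, which chose the set by these same libraries, is among the 8, so the count is a description and not a test. Class I differences were smaller, from 0.10 for Tap1 to 0.24 for B2m and Nlrc5, and that of B2m follows the library total.

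Against PBS 3 times, HSCs at day 21 after 5-FU 3 times had higher class II levels that did not pass the test over all genes. None of the 9 members tested was past the threshold (edgeR), where 0.0475% of the 12632 genes were. At an unadjusted p under 0.05 there were 8 of 9 (13.7% of all genes), and DESeq2 called 5, H2-Aa, H2-Ab1, H2-Eb1, H2-K1 and H2-D1 (4.69% of all genes). In 8 of the 9, all but Ciita, every 5-FU library lay above every PBS library, which was so for 10.5% of all genes. The largest differences were those of H2-Eb1 at 0.72 (SE 0.12, adjusted p = 0.0862) and Ciita at 0.68 (SE 0.29, adjusted p = 0.365). H2-Aa stood at 0.38 (SE 0.09, adjusted p = 0.165) and H2-Ab1 at 0.32 (SE 0.08, adjusted p = 0.168). Cd74 differed by 0.69, or 1.62-fold, without a test. These groups differ in the day of isolation as well as in treatment.

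After a single administration, no class II member at day 21 was separated from PBS once by the test, and the libraries of all 5 overlapped. None of the 9 members tested was past the threshold (edgeR; 0.221% of the 12647 genes were), with 2 at an unadjusted p under 0.05, Ciita and H2-K1 (13.3% of all genes), and 1, H2-K1, by DESeq2 (5.74% of all genes). Ciita stood at −0.67 (SE 0.25, adjusted p = 0.314), H2-Aa at −0.29 (adjusted p = 0.511), H2-Ab1 at −0.23 (adjusted p = 0.504) and H2-Eb1 at 0.10 (adjusted p = 0.843). Cd74 differed by −0.39, without a test. The tag in the column names separates these groups too, and its part cannot be told apart from time and treatment. With PBS 3 times as the control, which shares the column name style, Cd74 differed by −0.82 and H2-Eb1 by −0.67.

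From day 6 to day 21 after 5-FU, members of both classes rose. After 1 administration 4 of 9 members tested rose and none fell, where 26.0% of all 12589 genes were past the threshold and 12.3% were higher. H2-Eb1 rose by 1.05 on the log2 scale (SE 0.22, adjusted p = 0.0152) and H2-Aa by 0.48 (SE 0.14, adjusted p = 0.0455). H2-K1 rose by 0.43 (SE 0.06, adjusted p = 0.00379) and H2-D1 by 0.32 (SE 0.06, adjusted p = 0.0114). Ciita at 0.84 (adjusted p = 0.0792) and H2-Ab1 at 0.15 (adjusted p = 0.431) missed the threshold. Cd74 differed by 0.10, without a test, and its day 6 and day 21 libraries overlapped. The sort and the column name style also separate these groups and cannot be told apart from time. Without replicate 2 or without replicate 3 of day 6 the count was 2, with H2-Aa and H2-Eb1 lost, and H2-Aa was also lost without replicate 1 of day 6 and without replicates 1 or 3 of day 21 (adjusted p 0.0513 to 0.136). H2-Aa missed it as well with library totals (adjusted p = 0.0705) and with all genes of at least 1 count in the test (adjusted p = 0.0599).

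After 3 administrations 6 of 9 members tested rose from day 6 to day 21 and none fell, where 19.5% of all 12553 genes were past the threshold and 8.68% were higher. Ciita rose by 1.38 (SE 0.38, adjusted p = 0.0412), H2-Eb1 by 1.35 (SE 0.26, adjusted p = 0.0124), H2-Aa by 0.94 (SE 0.17, adjusted p = 0.00968) and H2-Ab1 by 0.54 (SE 0.14, adjusted p = 0.0342). The class I heavy chains H2-D1 (0.39, adjusted p = 0.0103) and H2-K1 (0.37, adjusted p = 0.0106) completed the 6. Cd74 differed by 1.28, or 2.43-fold, without a test. The sort also separates these groups and cannot be told apart from time. H2-Ab1 was lost on leaving out any of 5 libraries, all but replicate 2 of day 6, and Ciita on leaving out any of 4, replicate 3 of day 6 or any of day 21. The count was then 4 or 5, and the adjusted p of the lost genes lay between 0.0727 and 0.117.

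**Figure D2:**
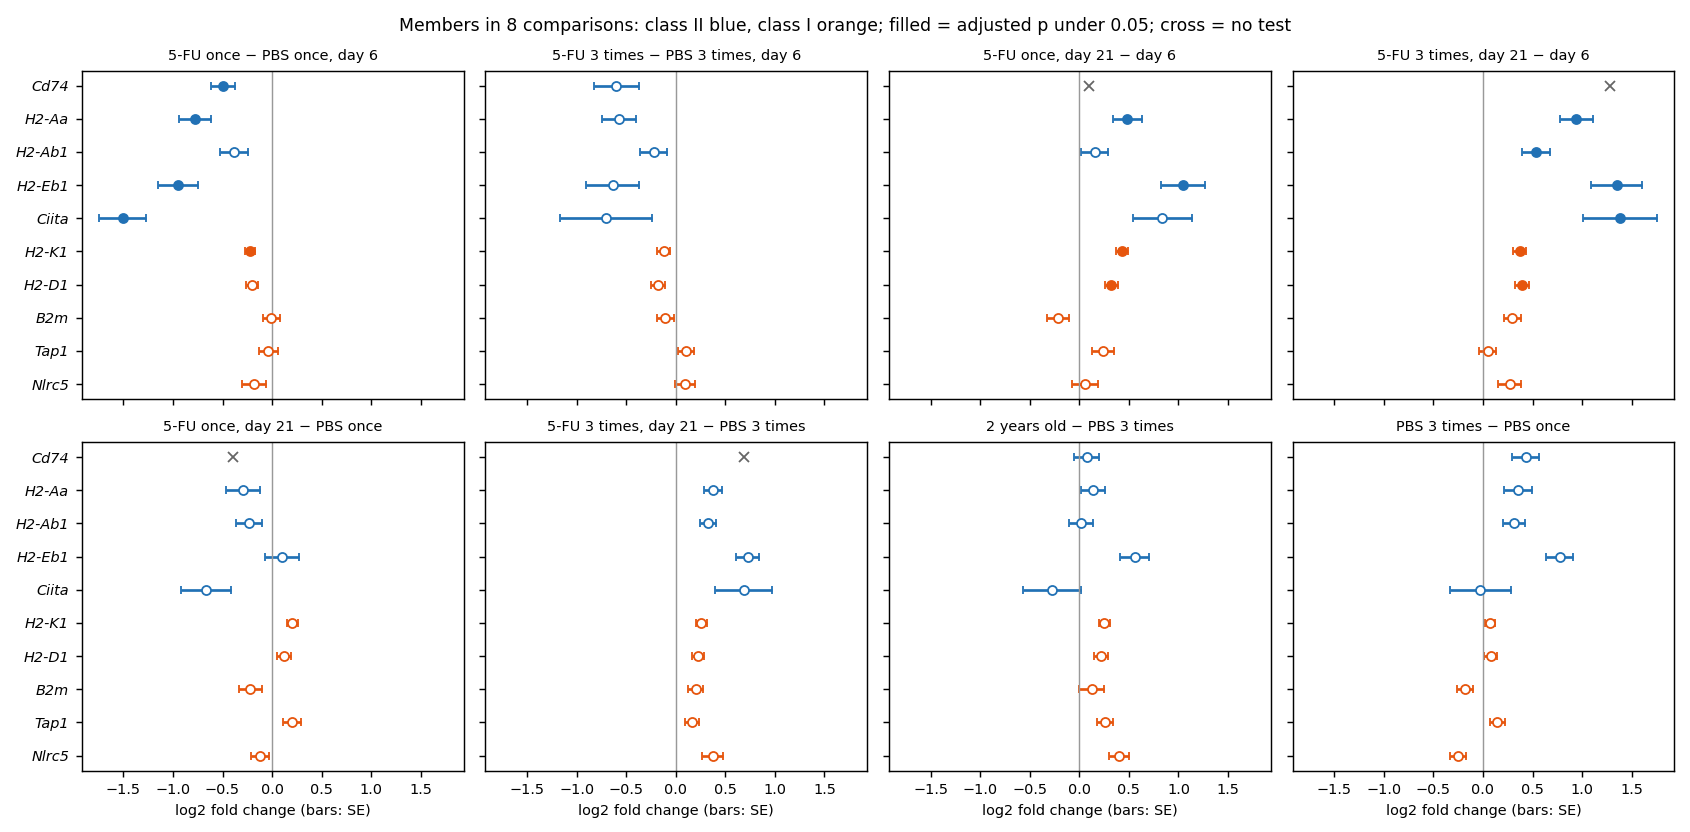
Log2 fold change of each member (points) with its standard error (bars) in 8 comparisons, class II in blue and class I in orange, filled where the adjusted p is under 0.05 and a cross where no test was made. After 5-FU once at day 6 the class II points lie left of 0, with Ciita at −1.51, and from day 6 to day 21 after 3 administrations they lie right of 0, with Ciita at 1.38.

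In HSCs of untreated mice aged 2 years, class II levels overlapped those of PBS 3 times except for H2-Eb1. None of the 10 members was past the threshold in this comparison (edgeR; 0.996% of the 12847 genes were), while H2-Eb1, H2-K1, H2-D1, Tap1 and Nlrc5 made up both the 5 at an unadjusted p under 0.05 (11.2% of all genes) and the 5 called by DESeq2 (4.43% of all genes). H2-Eb1 measured 16.7, 14.7 and 19.1 CPM in old HSCs, all above PBS 3 times (log2 difference 0.56, SE 0.14, adjusted p = 0.160). Cd74 measured 127, 122 and 158 CPM in old HSCs and overlapped PBS 3 times (0.07, adjusted p = 0.938). H2-Aa at 0.14 (adjusted p = 0.817), H2-Ab1 at 0.01 (adjusted p = 0.994) and Ciita at −0.27 (adjusted p = 0.863) overlapped as well. With PBS once as the control, whose column names differ in style, H2-Eb1 (1.34, adjusted p = 0.00515), H2-K1 (0.33, adjusted p = 0.0175) and Tap1 (0.41, adjusted p = 0.0465) were past the threshold. The old mice were untreated, so injection and age cannot be told apart.

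The PBS groups themselves were not level in class II transcripts. Of the 10 members none was past the threshold (edgeR; 0.0156% of the 12806 genes were), while 5 were at an unadjusted p under 0.05 (12.8% of all genes) and DESeq2 called 1, H2-Eb1 (4.27% of all genes). PBS 3 times lay above PBS once without overlap for H2-Eb1 (0.77, SE 0.14, adjusted p = 0.128), Cd74 (0.43, SE 0.14, adjusted p = 0.273), H2-Aa (0.35, SE 0.15, adjusted p = 0.381) and H2-Ab1 (0.31, SE 0.11, adjusted p = 0.324), as did 10.2% of all genes. Ciita did not follow (−0.03, SE 0.31). The number of injections, age and column name style all separate these groups and cannot be told apart. The comparisons of day 6, of day 21 with PBS and of old HSCs share these control libraries.

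In order of group means, Cd74 ran from 5-FU 3 times at day 21 (207 ± 19.8 CPM, SD, n = 3) to old (135 ± 19.6), PBS 3 times (128 ± 13.5), PBS once (95.0 ± 15.3), 5-FU 3 times at day 6 (85.5 ± 29.0), 5-FU once at day 21 (72.4 ± 7.65) and 5-FU once at day 6 (68.0 ± 2.42). Ranges of neighbours in this order were apart only at the first step and between PBS 3 times and PBS once. H2-Aa kept the same order, and H2-Ab1 differed in that 5-FU 3 times at day 6 stood above PBS once. H2-Eb1 was highest in 5-FU 3 times at day 21 (18.8 ± 1.28 CPM) and old (16.8 ± 2.22), which overlapped, and lowest in 5-FU once at day 6 (3.47 ± 0.50), apart from all others. Ciita had its highest mean in 5-FU 3 times at day 21 (44.1 ± 4.73 CPM), apart from PBS once as the next in order but overlapping replicate 1 of PBS 3 times (41.5 CPM).

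The class I heavy chains H2-K1 and H2-D1 had small fold changes. H2-K1 measured 1469.6, 1403 and 1428 CPM after PBS once and 1245, 1259.9 and 1201 CPM after 5-FU once at day 6. The groups were separate by a small step, and the log2 fold change was −0.22 (SE 0.05, adjusted p = 0.0197), or 0.856-fold. H2-D1 measured 289.8, 274 and 302 CPM after PBS once and 254, 252 and 249.9 CPM after 5-FU once. It showed a step of like size, −0.20 (SE 0.06, adjusted p = 0.0522), at the edge of the threshold, and passed it with library totals (adjusted p = 0.0333) or DESeq2 (adjusted p = 0.00117).

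After 3 administrations H2-K1 measured 1563, 1520.1 and 1421 CPM with PBS and 1433, 1458 and 1311 CPM with 5-FU at day 6 (log2 fold change −0.12, adjusted p = 0.256). H2-D1 measured 312, 309 and 289.5 CPM with PBS and 275, 283 and 257 CPM with 5-FU (−0.18, SE 0.07, adjusted p = 0.126). The ranges overlapped for H2-K1 and were separate for H2-D1. At day 21 H2-K1 measured 1707, 1669 and 1577 CPM after 1 administration and 1807, 1844 and 1759.6 CPM after 3. Both sets lay above all libraries of day 6, treated or not. H2-D1 measured 322, 312 and 307 CPM after 1 and 355, 356 and 355 CPM after 3 administrations.

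In old HSCs H2-K1 (1777, 1811 and 1810.1 CPM) and H2-D1 (362, 344 and 361 CPM) lay at the level of 5-FU 3 times at day 21, and the ranges of these groups overlapped. Against PBS 3 times the old libraries were above without overlap, with log2 differences of 0.25 for H2-K1 (SE 0.05, adjusted p = 0.104) and 0.22 for H2-D1 (SE 0.07, adjusted p = 0.251). With all 21 libraries in a single fit both were past the threshold, at adjusted p = 0.0116 and 0.0402.

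No other class I member was past the threshold after 5-FU at day 6. Tap1, the peptide transporter subunit, measured 224, 207 and 200.4 CPM after PBS once and 204, 230.2 and 183 CPM after 5-FU once. The groups overlapped, with a log2 fold change of −0.04 (SE 0.10, adjusted p = 0.796). After 3 administrations it stood at 0.10 (SE 0.08, adjusted p = 0.432). Its group means ran from 206 ± 23.6 CPM in 5-FU once at day 6 to 279.5 ± 12.2 CPM in old HSCs (SD, n = 3), and old against PBS 3 times gave 0.26 (SE 0.08, adjusted p = 0.238).

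Nlrc5, the class I coactivator, measured 43.9, 46.0 and 45.4 CPM after PBS once and 38.0, 34.8 and 47.5 CPM after 5-FU once. Replicate 3 after 5-FU lay above the PBS libraries, and the log2 fold change was −0.18 (SE 0.12, adjusted p = 0.311). All neighbours in the order of its group means overlapped, from 37.7 ± 2.74 CPM in PBS 3 times to 50.1 ± 2.41 CPM in old HSCs. Old against PBS 3 times gave 0.40 (SE 0.10, adjusted p = 0.148), and 5-FU 3 times at day 21 against PBS 3 times gave 0.37 (SE 0.11, adjusted p = 0.225).

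B2m, the class I light chain, stood at 34.5 to 49.9 CPM in all libraries, and all neighbours in the order of its groups overlapped. Its raw counts were nearly the same everywhere, 1134 to 1260, a ratio of 1.11, while library totals differed 1.74-fold. On the log2 scale its count rose by 0.14 per unit of the total. The median of this slope was 0.714 over 4972 genes with a single RefSeq transcript and 0.948 over 5658 genes with more, among genes with a mean of at least 100 counts. B2m reached at most 1.47 counts per base of its transcript, and of 12074 genes with a single RefSeq transcript 30 (0.248%) exceeded 2 counts per base, against 20.4% of 8017 genes with more. The CPM and fold changes of B2m therefore follow the library total, and its log2 fold change of −0.01 (SE 0.08, adjusted p = 0.959) after 5-FU once cannot be read as a steady level of the transcript. H2-Aa and H2-Ab1, also with a single RefSeq transcript, had slopes of 0.382 and 0.466, while their counts varied 3.15-fold and 2.34-fold between libraries. Cd74 and Ciita, with 2 and 5 RefSeq transcripts, had slopes of 0.247 and 0.399, and their counts varied 3.70-fold and 8.13-fold. H2-D1, with a single RefSeq transcript, reached 5.64 counts per base. The slope also takes in differences between groups, so it cannot decide whether fold changes of class II genes are compressed. Those of H2-Aa and H2-Ab1 may be, and the missed threshold of H2-Ab1 after 5-FU once does not show a steady level. The program that made the counts is not stated, and the cause was not tested. For the same reason levels were not compared between members.

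**Figure D3:**
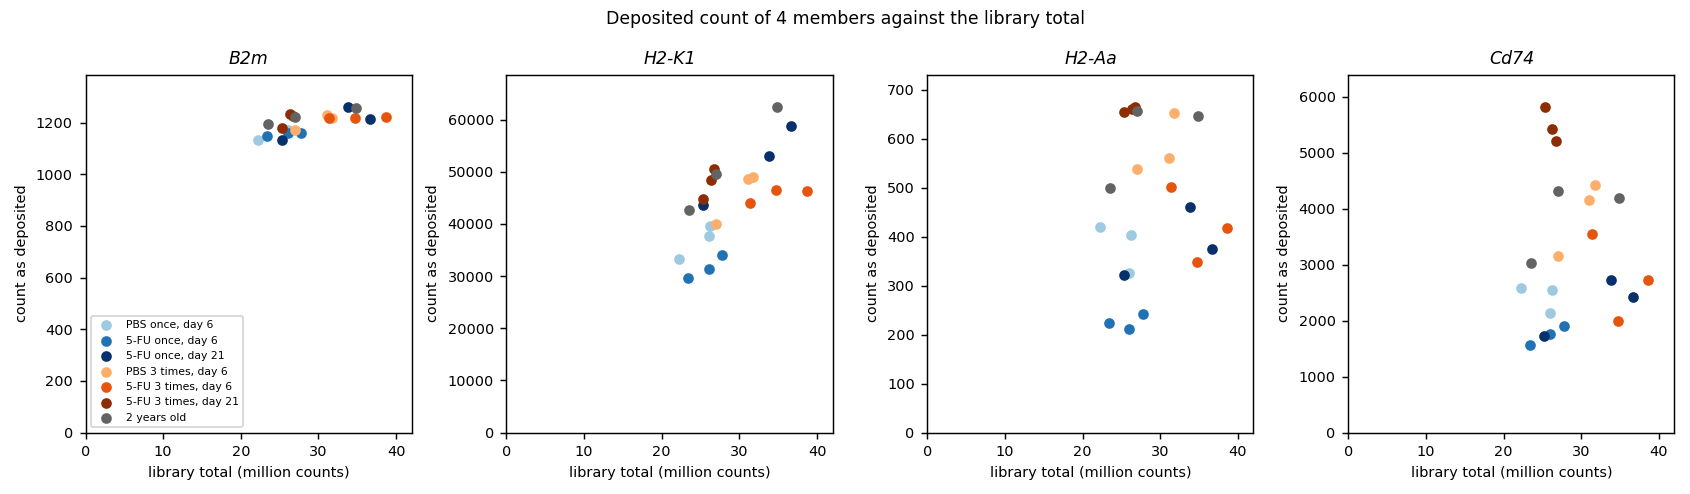
Deposited counts of B2m, H2-K1, H2-Aa and Cd74 in each library against the library total, coloured by group. B2m lies on a flat line between 1134 and 1260 counts while totals differ 1.74-fold.

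Of 60 further genes of antigen presentation in 5 lists, 53 were tested at day 6 after 5-FU once, and 5 were higher and 12 lower. After 3 administrations 3 were higher and 9 lower of 53. Over all genes tested 11.5% were higher and 10.6% lower after 1 administration, and 9.84% and 8.30% after 3. Most of the 12 decreases were among other class I heavy chains, nonclassical molecules and their relatives, of which 8 of 13 fell after 1 administration (median −0.48) and 4 of 13 after 3 (median −0.37), and none rose. H2-Q6, a Qa-2 gene whose promoter holds the same pair of motifs as H2-K1, fell by 0.76 (adjusted p = 0.000806) after 1 administration and by 0.37 (adjusted p = 0.0205) after 3. Cd1d1, which presents lipids, fell by 1.09 (adjusted p = 0.00243) and by 0.75 (adjusted p = 0.0215). Mr1, which presents vitamin B metabolites, fell by 0.65 (adjusted p = 0.00297) and by 0.99 (adjusted p = 0.00664). From day 6 to day 21, 8 of 13 heavy chain genes rose after 1 administration and 10 of 13 after 3, and none fell. Over all genes tested in this interval 12.3% were higher and 13.7% lower after 1 administration, and 8.68% and 10.8% after 3.

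The other class II genes, 12 tested, moved in both directions. After 5-FU once H2-DMa, a subunit of the peptide exchange factor H2-DM, fell by 0.45 (adjusted p = 0.00375), and H2-Ob, a subunit of its inhibitor, fell by 1.30 (adjusted p = 0.0269). H2-DMa measured 131, 134 and 133 CPM after PBS once and 95.7, 99.1 and 97.3 CPM after 5-FU once, a clean separation. Instead, 2 endosomal proteases rose, Ctss, which trims the invariant chain, by 1.29 (adjusted p = 0.00357) and Lgmn by 2.16 (adjusted p = 0.0188). Ctsl, a further protease of the list, was not past the threshold. After 3 administrations 4 fell and none rose, H2-Ob (−1.10, adjusted p = 0.0145), H2-DMa (−0.32, adjusted p = 0.0321), H2-DMb1 (−0.50, adjusted p = 0.0394) and H2-DMb2 (−0.66, adjusted p = 0.0443). From day 6 to day 21 H2-Ob and H2-DMa rose, and Ctss and Lgmn fell, after 1 and after 3 administrations alike.

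The factors that bind MHC promoters, 7 genes of the RFX and NF-Y complexes and Creb1, gave 0 calls by edgeR at day 6 after 1 administration and 0 after 3. At an unadjusted p under 0.05 there was 1 after 1 administration, and DESeq2 called 1 (2 and 2 after 3). Over all genes the shares past the threshold, at an unadjusted p under 0.05 and by DESeq2 were 22.2%, 37.6% and 28.9% after 1 administration. After 3 they were 18.1%, 32.9% and 26.4%. From day 6 to day 21 Rfx5 (0.60), Rfxank (0.61) and Creb1 (0.42) rose after 1 administration, and none was past the threshold after 3 (3 at an unadjusted p under 0.05 and 1 by DESeq2). Of all genes 12.3% rose in this interval after 1 administration. After 3, 19.5% of all genes were past the threshold, 34.0% were at an unadjusted p under 0.05 and DESeq2 called 27.4%. Of 12 class I loading and proteasome genes, Psme2, a proteasome activator subunit, rose by 0.57 (adjusted p = 0.00341) after 1 administration and by 0.35 (adjusted p = 0.0192) after 3, opposite to the heavy chains, and Canx, a chaperone, rose by 0.25 (adjusted p = 0.0444) after 3. The counts of both rose with the library total (slopes 1.06 and 1.12), while Tap2, Tapbpl, Calr, Pdia3, Psmb8, Psmb9, Psmb10 and Psme1, with a single RefSeq transcript each, had slopes of 0.332 to 0.475. The fold changes of these 8 may be compressed as those of B2m are, and a missed threshold there does not show a steady level.

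Of 9 genes of interferon-gamma signalling, 4 rose and 2 fell from day 6 to day 21 after 3 administrations. Over all genes tested 8.68% were higher and 10.8% lower. The interferon regulatory factors Irf1 (0.53, adjusted p = 0.0169), Irf2 (0.36, adjusted p = 0.0195) and the signalling inhibitor Socs1 (0.44, adjusted p = 0.0378) were among those that rose, while Irf8 (−0.94, adjusted p = 0.0221) and the receptor chain Ifngr2 (−0.36, adjusted p = 0.0431) fell. After 1 administration Jak1 (0.40) and Jak2 (0.68) rose and Irf8 fell (−1.86, adjusted p = 0.00798) over the same interval. At day 6 after 5-FU once Irf8, a factor of monocyte and dendritic cell fate, had risen by 1.95 (adjusted p = 0.00357).

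Against PBS, none of the 53 tested genes of the 5 lists was past the threshold at day 21 in edgeR. After 1 administration 12 were at an unadjusted p under 0.05 and DESeq2 called 7, and after 3 these counts were 11 and 5. Over all genes the shares were 13.3% and 5.74% after 1 administration, and 13.7% and 4.69% after 3. In old HSCs 1 of 53 passed, Ctss (−1.22, adjusted p = 0.0487), and 0.996% of all genes did. PBS 3 times against PBS once gave 0 (6 at an unadjusted p under 0.05, 3 by DESeq2), and the interaction at day 6 gave 0 of 54 (10 and 5). The latter 2 shares over all genes were 12.8% and 4.27% between the PBS groups and 14.8% and 5.42% in the interaction.

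**Figure D4:**
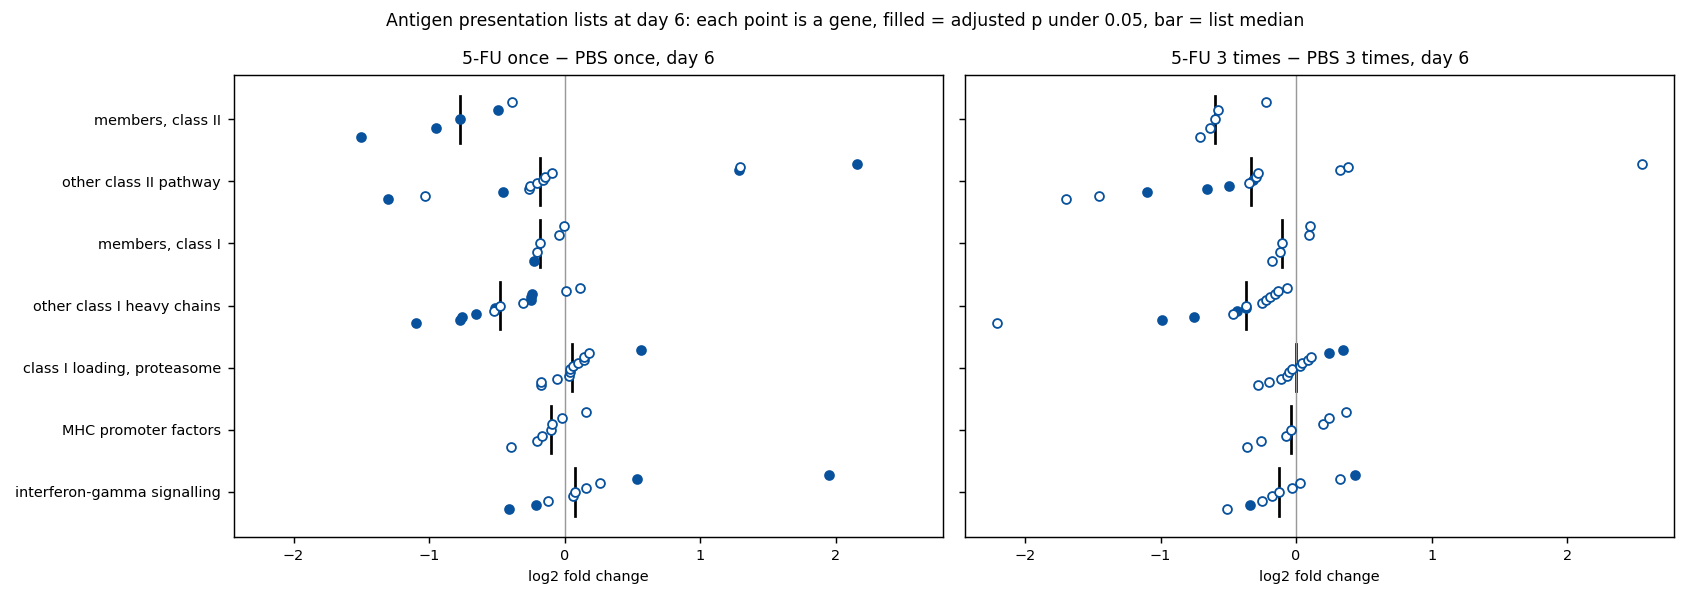
Log2 fold change at day 6 after 5-FU of each tested gene (points, filled where the adjusted p is under 0.05) of the members and 5 further lists, with the median of each list (bars), after 1 administration (left) and 3 (right). Other class I heavy chains lie mostly left of 0, with medians of −0.48 and −0.37, and Ctss and Lgmn are the filled points right of 0 among other class II genes after 1 administration.

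Several markers of cells that carry class II molecules were close to 0 and others were not. The B cell markers Cd79a, Ms4a1, Pax5, Cd22 and Blk did not exceed 0.446 CPM (Cd22) in any library, and the dendritic markers Itgax, Siglech, Cd209a, Xcr1 and Batf3 did not exceed 0.514 CPM (Itgax). Other genes of the dendritic list were expressed, with Cst3 at 19.4–27.01 CPM, Flt3 at 3.22–29.9, Bst2 at 11.3–18.3, Clec9a at 0.738–29.2 and Zbtb46 at 0.3999–10.02 CPM over the 21 libraries. From day 6 to day 21, Flt3, whose protein the study's gate excludes, rose by 2.01 after 1 administration (adjusted p = 0.00477). After 3 it rose by 0.95 (adjusted p = 0.0219). Clec9a rose by 2.08 after 1 administration (adjusted p = 0.0341), while Bst2 fell (−0.48, adjusted p = 0.0237). Of 5 genes of the dendritic list tested there, 2 were higher and 1 lower (12.3% and 13.7% of all genes), with a median of −0.30. Zbtb46 stood 1.57 above PBS 3 times at day 21 after 3 administrations, without overlap (adjusted p = 0.198). After 1 administration it lay below PBS once without overlap (−1.06, adjusted p = 0.432). PBS 3 times itself lay below PBS once without overlap (−2.11, adjusted p = 0.148). The monocyte and macrophage markers Csf1r, Adgre1 and Ly6c2 did not exceed 4.77 CPM (Adgre1). Other genes of that list were expressed, with Lyz2 at 30.8–47.6, Itgam at 5.00–49.3 and Cd68 at 2.67–11.7 CPM. Of 6 defining T and NK cell markers, Gzma, Ncr1 and Cd8a were at 0 in all libraries and the other defining markers did not exceed 0.191 CPM. In the same list Nkg7 stood at 7.11–20.4 CPM and Klrb1c at 2.95–35.5 CPM, and Cd4 reached 3.82 CPM. In bulk libraries fewer cells of a type and less RNA per cell cannot be told apart.

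The summed level of the whole B cell list (10 genes, mostly Cd79b) was 29.8–43.6 CPM in 5-FU 3 times at day 21 and 39.1–43.4 CPM in 5-FU once at day 21. Of its other genes Ebf1 ranged from 0 to 9.06 CPM in 5-FU 3 times at day 21 and was at 0 in 5-FU once at day 21. The dendritic list (11 genes, mainly Cst3, Flt3 and Bst2) was 66.6–83.2 CPM in the former and 62.7–72.9 CPM in the latter, and the monocyte and macrophage list (11 genes) was 72.1–82.4 and 77.9–88.9 CPM. At day 6 after 5-FU once the dendritic list was lower, as were the class II genes, at 48.1–61.3 CPM against 66.9–77.3 after PBS, and the neutrophil list (8 genes) went from 46.9–92.6 to 17.2–29.5 CPM. After 3 administrations the dendritic sum was again lower at day 6, at 48.4–59.3 CPM against 68.6–71.6 after PBS. It was higher at day 21, in the same direction as the class II values. In that comparison of day 6 with day 21, Flt3 had means of 11.6 and 22.4 CPM, Clec9a 2.33 and 8.03, and Zbtb46 2.26 and 4.70. Cst3 (21.4 and 23.2 CPM) and Bst2 (13.2 and 14.0 CPM) changed little. The sum of the erythroid list (5 genes) moved the other way at day 6 after 1 administration, from 10.97–21.3 CPM after PBS to 48.6–52.8 CPM after 5-FU. Its genes did not move together. Of 3 tested, 1 was higher and 1 lower (11.5% and 10.6% of all genes), with a median of −0.16. After 3 administrations the day 6 ranges of this sum overlapped, at 14.4–28.1 CPM after PBS and 20.1–27.7 CPM after 5-FU. HSC markers (11 genes) were detected in every library and were lower at day 6 after 5-FU, at 3358–3504 CPM against 4114–4565 after 1 administration and 2878–2978 against 3992–4333 after 3. The part of these lists in the class II values was not tested.

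**Figure D5:**
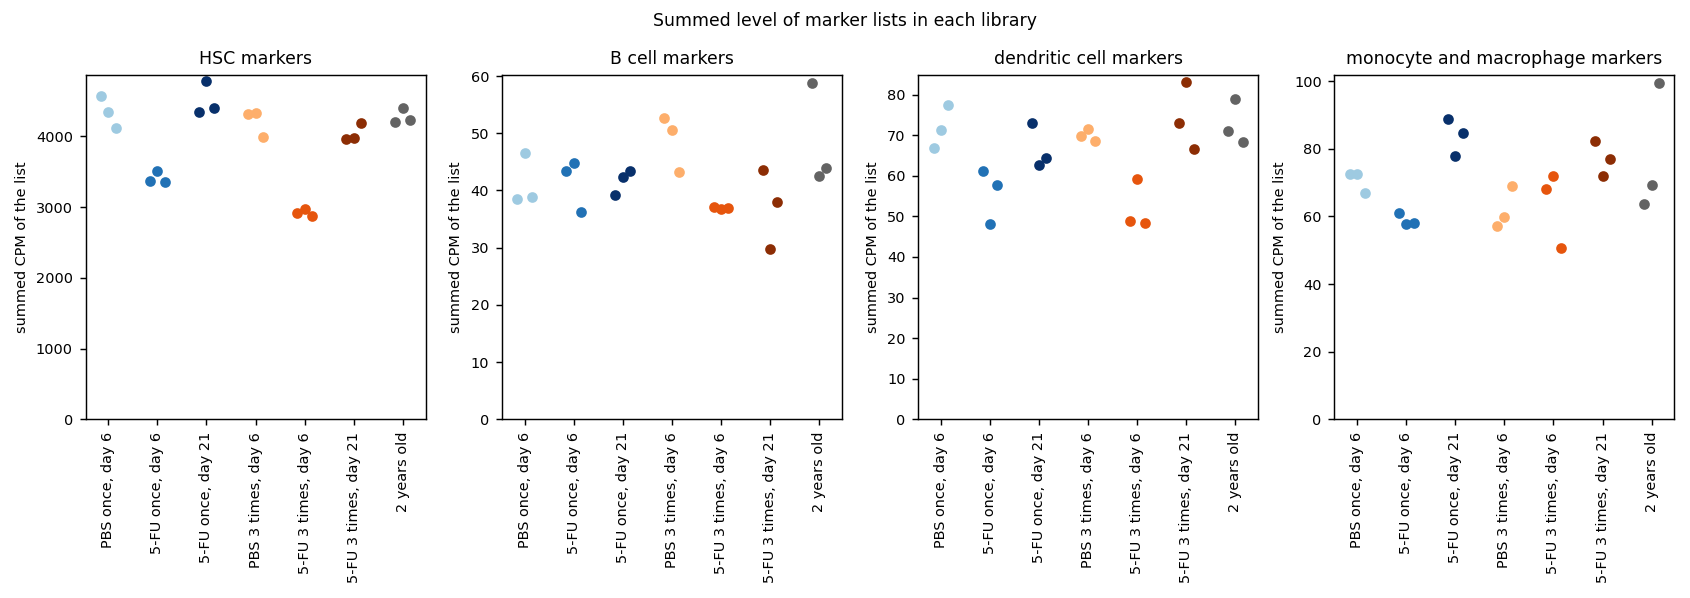
Summed level of marker lists of HSCs, B cells, dendritic cells and monocytes and macrophages in each library (points, CPM), by group. B cell markers lie at 29.8–43.6 CPM in 5-FU 3 times at day 21, where Cd74 is highest, and the dendritic list is lower at day 6 after 5-FU once than after PBS once.

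Across the 21 libraries, the genes most like Cd74 in log2(CPM + 1) were its own pathway. Among 12044 genes with a mean of at least 1 CPM, ranked by Pearson correlation with Cd74, H2-Aa stood at rank 1 (r = 0.95), H2-Ab1 at 2 (r = 0.92), H2-Eb1 at 3 (r = 0.91) and Ciita at 5 (r = 0.81). Spearman correlations of these were 0.94, 0.89, 0.91 and 0.80. The nonmembers closest to Cd74 were F830016B08Rik (r = 0.83), Slamf8 (0.81), Junb (0.81), Sphk1 (0.80) and Apol7e (0.79). H2-D1 stood at rank 11 (0.77), H2-K1 at 83 (0.67), Tap1 at 792 (0.47), Nlrc5 at 918 (0.46) and B2m at 2368 (0.30).

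With H2-K1, the closest genes were H2-Q1 (r = 0.98), Gm8909 (0.97), H2-D1 (0.97), Gm11127 (0.97), Gm7030 (0.97) and H2-T23 (0.97), which include class I genes of like sequence that may share its reads. H2-Eb1 stood at rank 36 (0.85), Tap1 at 337 (0.71), Cd74 at 485 (0.67) and B2m at 5249 (0.06). The points of these correlations are 7 groups of 3 libraries, so they describe mainly the differences between groups, and the libraries that chose Cd74 are among them.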

How the data were processed

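The authors sequenced SMART-Seq cDNA as single-end reads, aligned them to mm10 with TopHat 2.0.13, used Cuffdiff of Cufflinks 2.2.1, and deposited whole-number counts per gene symbol without normalization. The counting program is not given in the sources used here. Members and gene lists were chosen with earlier results of these data known. Named genes were the members, 5 nonmembers most like Cd74 and H2-K1, and genes of the other lists. The plan set up to 4 of the latter per list and comparison by smallest adjusted p. The text departs from it in places, so the genes named are not always those with the smallest adjusted p.

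Counts were tested in R 4.3.3 with edgeR 4.0.16 (filterByExpr, TMM, quasi-likelihood F test, Benjamini-Hochberg adjustment, threshold 0.05), with only the groups compared in each fit. SE is the absolute log2 fold change divided by the square root of F. In simulated counts both tools recovered the changed genes, but DESeq2 1.42.0 made more false calls than its nominal rate. The alternatives were other scalings and filters, DESeq2, a replicate block, a single fit of all libraries, another PBS control and leaving out each library, run for the members. Deviations of libraries with the same number correlated at −0.05 to 0.06 over 24 pairs, so the numbers were not used as pairs. No replicates were copies (21 pairs). Some genes of the lists, a B cell marker included, are not reported here by name, and remain in the counts and sums of their lists.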

Additional observations from a re-analysis of the deposited data

Results flagged for a closer look

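At day 21, 6 members stood on opposite sides of their PBS controls after 1 and after 3 administrations of 5-FU, each library after 1 administration lying below the mean of PBS once and each after 3 lying above the mean of PBS 3 times. None of the 5 members tested was past the threshold against PBS in either case, Cd74 had no test, and the differences between both cases were not tested. Values here are differences of mean log2 CPM with TMM factors over the 21 libraries, so they depart slightly from the edgeR fold changes. The difference (3 administrations minus 1) was 1.08 for Cd74 (−0.39 after 1, 0.70 after 3), the gene that chose the members, and 1.49 for Ciita (−0.71 and 0.78). It was 0.66 for H2-Aa (−0.28 and 0.38) and 0.56 for H2-Ab1 (−0.23 and 0.33). For Nlrc5 it was 0.50 (−0.13 and 0.38), and with PBS 3 times as the control of 5-FU once Nlrc5 stood at 0.14, above the control as after 3 administrations. For B2m it was 0.43 (−0.23 and 0.21), where the values follow the library total. The controls of the single administration differ from the other 15 libraries in the style of their column names.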

How the results depend on the processing

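Counts of members past the threshold are given here against the edgeR value of each comparison. For 5-FU once at day 6 (5 members) leaving out 1 library gave 1 to 4. For 5-FU 3 times at day 6 (0 members) library totals gave 2, DESeq2 3, a filter of at least 10 counts in every library 1, a single fit of all 21 libraries 4, and leaving out 1 library 0 to 2. Against PBS at day 21 (0 members), 5-FU once gave 1 with DESeq2 and 1 in the single fit, and 5-FU 3 times gave 5 and 2. From day 6 to day 21 after 5-FU once (4 members), leaving out 1 library gave 2 to 4. For old HSCs (0 members) DESeq2 gave 5, the single fit 2 and PBS once as the control 3. For PBS 3 times against PBS once (0 members) DESeq2 gave 1. Such calls of DESeq2 include more false ones than its threshold states. Other counts stayed within 1.5 times.

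The replicate numbers did not pair the samples. With the number as a block, 5-FU 3 times at day 6 gave 1 member (H2-Aa, adjusted p = 0.0499). Cd74 was lost after 5-FU once at day 6 (adjusted p = 0.0549), and H2-Aa from day 6 to day 21 after 5-FU once (adjusted p = 0.0883).

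Signs changed only for log2 fold changes that did not pass the test. B2m after 5-FU once at day 6 was 0.0013 in the single fit and −0.0529 to 0.0494 on leaving out 1 library. With library totals Nlrc5 after 5-FU 3 times at day 6 was −0.0088 and H2-D1 in the interaction −0.0267. With PBS 3 times as the control of 5-FU once at day 21, H2-Eb1 was −0.67 and Nlrc5 0.14, and with PBS once as the control of old HSCs B2m was −0.0525. Leaving out 1 library gave −0.13 to 0.0384 for Tap1 after 5-FU once at day 6, −0.39 to 0.0765 for Cd74 in the interaction, −0.0295 to 0.19 for Nlrc5 from day 6 to day 21 after 5-FU once and −0.0035 to 0.11 for Tap1 after 3 administrations. In old HSCs it gave −0.0402 to 0.14 for Cd74, −0.0655 to 0.12 for H2-Ab1 and −0.48 to 0.16 for Ciita, and for Ciita between the PBS groups −0.46 to 0.18. The causes were not tested. With library totals the median of all genes was 0.12, against 0.01 with TMM, from day 6 to day 21 after 3 administrations.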
